A study of Mus musculus with 6 samples.

Results

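Cathepsins are the proteases of the lysosome, and the 10 described here are Ctsa, Ctsb, Ctsc, Ctsd, Ctsf, Ctsh, Ctsk, Ctsl, Ctss and Ctsz, named as a family and read from a table of 53425 annotated genes in primary endothelial cells (ECs) of the mouse. Their rows were found by gene symbol, and where rows shared a symbol the one with the most summed counts was kept. A row of exactly that symbol was found for 8 of the 10. Ctsd and Ctsl lie in rows that join several genes, and are called the Ctsd locus and the Ctsl locus throughout. Among rows of one symbol the row was chosen by its summed counts over the 6 libraries, and the family was proposed with the difference of Ctsk between genotypes known. P-values are therefore given as a description of each gene's fit.

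Most cathepsins are made as inactive proenzymes, tagged with mannose 6-phosphate in the Golgi, carried to endosomes by mannose 6-phosphate receptors and activated by removal of the propeptide at acid pH. Ctsd is an aspartic protease, Ctsa is a serine carboxypeptidase and the others are cysteine proteases of the papain family. Cystatins and related proteins hold the cysteine cathepsins in check. Outside the lysosome, cathepsins can cut collagen, elastin and basement membrane, and in vessels they are known for work on the matrix.

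RNA was sequenced from ECs of 3 Stk11 ec-/- libraries (Stk11 fl/fl Cdh5 Cre, a floxed gene removed by a Cre driven by the VE-cadherin promoter) and 3 WT libraries. Stk11 encodes the kinase Lkb1. All 6 libraries came from mice of C57BL/6 background aged 2 months, with no treatment named. The Cdh5 promoter acts in endothelium from development on, and it is also active in part of the hematopoietic lineage. The source tissue is not named for the sequenced cells, and it is not stated that each library came from its own animal. The the p-values below rest on library-to-library spread that could be technical.

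The 6 libraries held 22179567 to 55545899 counts. Stk11 itself, counted over the whole gene and so blind to loss of part of its exons, was at 62.2 to 86.7 CPM (counts scaled to library size, after TMM) in Stk11 ec-/- and 70.8 to 93.9 CPM in WT libraries. The EC genes Cdh5 and Pecam1 were above 0 in every library, and the leukocyte gene Ptprc was at 0 in 5 of 6. Summed over 14 EC markers, levels ran from 330 to 3322 CPM in Stk11 ec-/- and from 441 to 1015 CPM in WT, with Stk11 ec-/- replicate 3 the lowest. Taken gene by gene, 13 of the 14 EC markers had a log2 fold change above 0, with a median of 1.98 beside 0.02 for all genes tested, and 3 (Kdr, Emcn and Tie1) were higher at an unadjusted p under 0.05, where 4.36% of all genes were. Kdr moved from 3.59 to 1.41 and Tie1 from 2.47 to 0.60 without Stk11 ec-/- replicate 2. The part of this shift in the differences below was not tested. Summed over 15 fibroblast markers they ran from 5119 to 17036 CPM and from 6562 to 15044 CPM. The Xist locus was at 273 to 474 CPM in Stk11 ec-/- and at 0.611 to 1.20 CPM in WT libraries, while Y-linked Kdm5d was at 0 to 0.174 CPM and 8.85 to 12.7 CPM. Sex-linked genes thus split the libraries the way genotype does, and for every difference below sex and genotype cannot be told apart. In bulk RNA, fewer cells of a type and less RNA per cell cannot be told apart either.

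On GRCm38, Ctsk lies on chromosome 3 from 95499256 to 95509362 on the plus strand, with 1 annotated transcript, and Ctss follows 17423 bases later on the same strand, from 95526786 to 95556403. Ctsa (164832873 to 164840019, plus) and Ctsz (174427493 to 174439039, minus) are on chromosome 2. Ctsc (88278085 to 88310888, plus) and the Ctsd locus (142325837 to 142387857, minus) are on chromosome 7. The remaining members are Ctsl on chromosome 13 (64359337 to 64370890, minus), Ctsb on chromosome 14 (63122462 to 63145923, plus), Ctsf on chromosome 19 (4855130 to 4860918, plus) and Ctsh on chromosome 9 (90054152 to 90076089, plus). The Ctsd locus also takes in Ifitm10 and Gm49369, and the Ctsl locus takes in Gm49230, a processed pseudogene. Counts of joined genes cannot be split, so these values are uncertain as values of Ctsd and Ctsl.

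Lysosomal genes are known for the sequence CACGTG near their start sites, where transcription factors of the Tfeb family bind. The letters CACGTG, which read the same on both strands, were searched in RefSeq promoters of GRCm38.p6, each holding 250 bases before and 50 after a start site. A promoter was listed for 8 of the 10 members, and 4 of these 8 held the letters, against 7.15% of 32851 promoters. The members are counted as genes with the letters in any listed promoter, whereas the 7.15% is of single promoters. The windows of 30 bases below show where they lie, on the strand of the gene, with CACGTG in capitals. Those of Ctsa are at the second of its 2 listed start sites, and Ctsd and Ctsa have 2 windows each. Starts here are those listed by RefSeq and can differ from the locus positions given above. The Ctsl window lies inside the span given for its locus, which on the minus strand begins at 64370890.
Ctsa, 12 bases before the start, chr2:164833749-164833778 (plus): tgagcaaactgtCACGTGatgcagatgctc
Ctsa, at base 6 after the start, chr2:164833766-164833795 (plus): gatgcagatgctCACGTGaccagagctaca
Ctsd, 98 bases before the start, chr7:142387908-142387937 (minus): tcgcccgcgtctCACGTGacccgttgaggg
Ctsd, 245 bases before the start, chr7:142388048-142388077 (minus): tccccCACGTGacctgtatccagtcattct
Ctsf, 79 bases before the start, chr19:4855074-4855103 (plus): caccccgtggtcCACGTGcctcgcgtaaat
Ctsl, 236 bases before the start, chr13:64370739-64370768 (minus): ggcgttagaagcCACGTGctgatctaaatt

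The letters were not in the listed promoters of Ctsc, Ctsk, Ctss and Ctsz. The 250 bases before the RefSeq start of Ctsk are shown because its difference between genotypes was known when the family was proposed. They hold no letters marked in capitals, and they end at 95499209, short of the locus start at 95499256 given above. A match is a description of these letters, not a bound site.
Ctsk, chr3:95498960-95499209 (plus): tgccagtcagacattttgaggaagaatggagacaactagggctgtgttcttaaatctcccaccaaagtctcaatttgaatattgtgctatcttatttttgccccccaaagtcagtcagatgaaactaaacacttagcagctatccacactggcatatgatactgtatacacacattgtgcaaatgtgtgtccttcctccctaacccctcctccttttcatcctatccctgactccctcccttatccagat

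The levels of the family were compared per length in FPKM (fragments per kilobase, scaled to depth), since only that unit allows genes of different length to be set side by side. The Ctsd locus and Ctsb had the highest mean FPKM over the 6 libraries, at percentile 99.1 of all genes tested for each, followed by Ctsz at percentile 98.7, Ctsa at 97.1 and the Ctsl locus at 96.9. Ctsc stood at percentile 83.8, Ctsk at 74.4, Ctsf at 71.9, Ctsh at 69.1 and Ctss at 6.04. The family thus fell into abundant members, moderate members and Ctss, which was barely above 0.

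Ctsz and Ctsa, the Ctsl locus and Ctsc, and Ctsh and Ctss did not overlap in any library, whereas the other neighbours in this order did. In Stk11 ec-/- libraries the Ctsd locus measured 215 ± 116 FPKM (SD, n = 3) and Ctsb 185 ± 70.8 FPKM, and in WT libraries they measured 136 ± 50.9 and 136 ± 21.9 FPKM. Ctsa at 52.4 ± 11.3 and the Ctsl locus at 56.0 ± 16.6 FPKM in Stk11 ec-/- were likewise within their spread of each other. Ctsk changed place between genotypes. In WT its 9.52 ± 1.12 FPKM was above Ctsf at 4.50 ± 0.932 and Ctsh at 3.89 ± 1.11 FPKM, and in Stk11 ec-/- its 2.20 ± 0.917 FPKM was below Ctsf at 5.90 ± 1.13 FPKM.

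**Figure D1:**
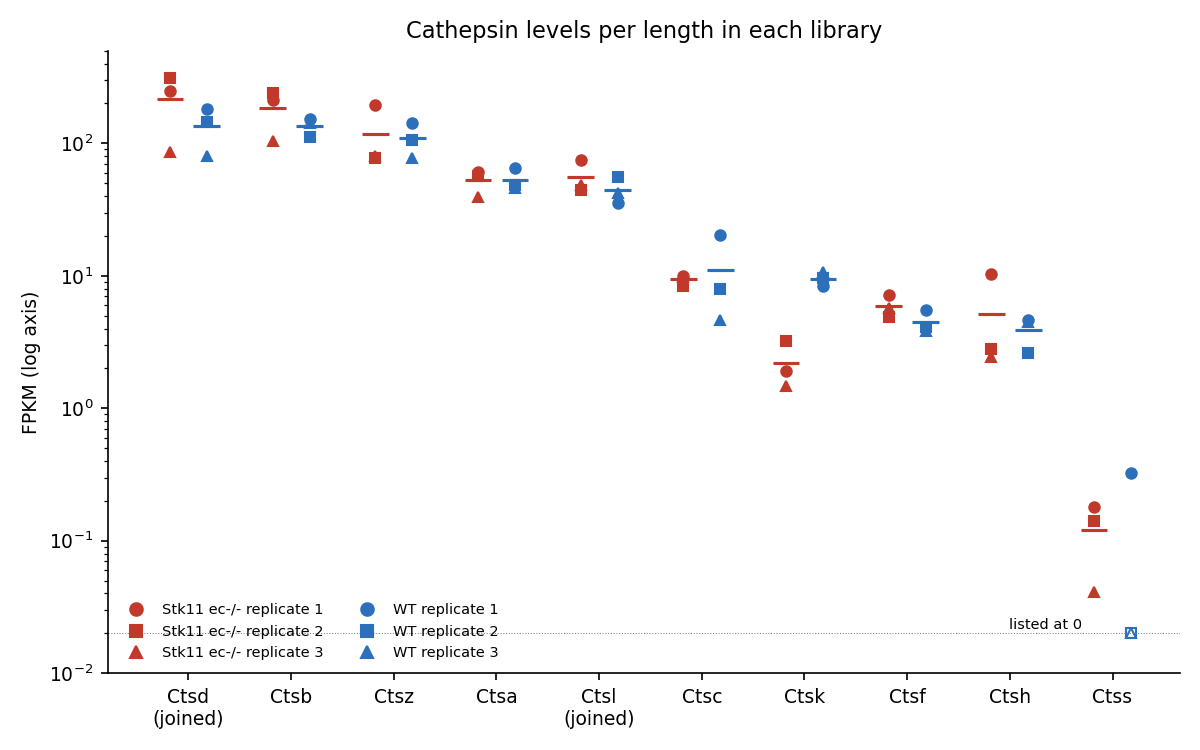
FPKM of the 10 cathepsins on a log axis, with 1 point for each of 3 Stk11 ec-/- (red) and 3 WT (blue) libraries, bars at group means where no library is at 0, and open symbols for libraries at 0. Ctsk runs from 1.47 to 3.23 FPKM in Stk11 ec-/- and from 8.37 to 10.6 FPKM in WT, and its groups do not overlap on this scale. How many of all genes do not overlap in FPKM was not counted.

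Ctsk, the cysteine protease with which osteoclasts dissolve bone collagen and which also cuts elastin, was lower in every Stk11 ec-/- library than in any WT library. Raw counts of Ctsk were 174, 207 and 150 in Stk11 ec-/- libraries and 320, 655 and 1060 in WT libraries. Its scaled level was 3.10, 5.42 and 3.26 CPM in the former and 14.8, 22.5 and 28.2 CPM in the latter. Within WT the level ranged by 1.91-fold and within Stk11 ec-/- by 1.75-fold. The CPM groups did not overlap, as was the case in this direction for 6.58% of all genes tested.

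In deposited FPKM, Ctsk (identifier ENSMUSG00000028111) was listed at 1.91, 3.23 and 1.47 in Stk11 ec-/- and at 8.37, 9.58 and 10.6 in WT libraries. The WT mean in FPKM was 4.32-fold the Stk11 ec-/- mean, or 3.29-fold after 1 was added to each mean. The log2 fold change of Ctsk in counts, Stk11 ec-/- minus WT, was -2.47 (SE 0.41, 95% interval -3.43 to -1.52). By edgeR's quasi-likelihood test the unadjusted p was 0.00042 and the p adjusted over 17379 genes was 0.192, so the difference did not pass an adjusted p of 0.05. An exact two-sided permutation test of the CPM gave p = 0.1, the smallest that 3 against 3 libraries allow. DESeq2 gave -2.48 with an adjusted p of 4.23e-05.

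The thresholds of the study's methods, an unadjusted p under 0.05 and an FPKM fold over 2, were passed by Ctsk under every alternative that was run. In the main fit the p was edgeR's and 1 was added to each FPKM mean, which the methods do not name. Across those alternatives its log2 fold change lay between -2.77 and -1.75. Without replicate 3 of both genotypes, which stood apart in their fibroblast and EC markers, it was -2.13 (unadjusted p = 0.00513). Leaving out 1 library at a time gave edgeR adjusted p-values from 0.27 to 0.715.

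Of the 10 cathepsins, 0 passed an edgeR adjusted p of 0.05, where 0.0748% of the 17379 genes tested did. At an unadjusted p under 0.05, 1 member was lower (Ctsk) and none was higher, beside 2.99% of all genes lower and 4.36% higher (7.35% in all). With the FPKM fold over 2 required as well, taken after 1 was added to each mean, the same 1 member was lower, beside 0.748% of all genes. DESeq2 called 1 member lower (Ctsk), beside 0.539% of the 19308 genes for which it gave an adjusted p, and limma on log2(FPKM + 1) called 0, beside 0.168%. Log2 fold changes were above 0 for 5 members and below 0 for 5, and their median of 0.02 was that of all genes tested, 0.02. Since the family was proposed with this comparison known, nothing is read from these counts.

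**Figure D2:**
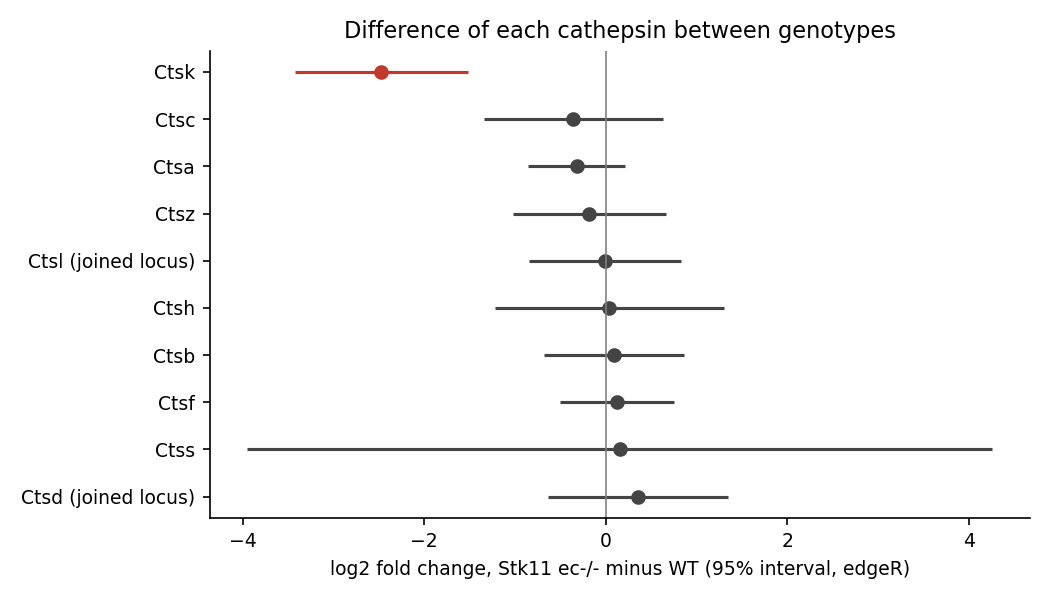
Log2 fold change in counts of each cathepsin, Stk11 ec-/- minus WT, as edgeR estimates (points) with 95% intervals (lines) over 3 libraries a group. Ctsk is at -2.47 with an interval from -3.43 to -1.52, the intervals of the 9 others hold 0, and that of Ctss is the widest.

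The other members did not separate the genotypes beyond the spread of the libraries in the edgeR fit. For the 8 other than Ctsk and Ctss, log2 fold changes ran from -0.36 to 0.35, with adjusted p-values from 0.775 to 0.998 (edgeR). Their 95% intervals lay between -1.34 and 1.34, so differences within those bounds remain possible for one or another of them. Every member other than Ctsk and Ctsa overlapped between groups in CPM. Among all genes tested, 6.58% were lower without overlap and 7.69% higher.

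Ctsa, the carboxypeptidase that protects the sialidase Neu1 and the beta-galactosidase Glb1 in a lysosomal complex, was measured at 307, 296 and 273 CPM in Stk11 ec-/- and at 360, 354 and 379 CPM in WT libraries. The CPM groups did not overlap, with the Stk11 ec-/- libraries lower, as did those of 6.58% of all genes tested. Ctsa had a log2 fold change of -0.32 (SE 0.23, edgeR adjusted p = 0.775), a small difference with little spread within either group. In FPKM the groups overlapped, at 52.4 ± 11.3 (SD, n = 3) in Stk11 ec-/- and 53.3 ± 10.7 in WT. Log2 differences from limma on log2(FPKM + 1) were shifted up by a median of 0.25 against the edgeR fit. That limma fit took only genes with a mean FPKM of at least 1.

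Neu1, a partner of Ctsa that removes sialic acid, was at 29.3, 22.4 and 27.7 CPM in Stk11 ec-/- and at 38.2, 47.2 and 36.9 CPM in WT libraries. Every Stk11 ec-/- library was again below every WT library, for a log2 difference of -0.62 (SE 0.26, unadjusted p = 0.0473, edgeR adjusted p = 0.677). Glb1, joined in its row with Tmppe, was at 116, 105 and 113 CPM in Stk11 ec-/- and at 128, 119 and 129 CPM in WT libraries, a log2 difference of -0.18 (SE 0.22, edgeR adjusted p = 0.882). Ctsa, Neu1 and Glb1 overlapped between groups in FPKM. In CPM they did not, as was the case in this direction for 6.58% of all genes, and for Glb1 the gap was only that between 116 and 119 CPM.

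**Figure D3:**
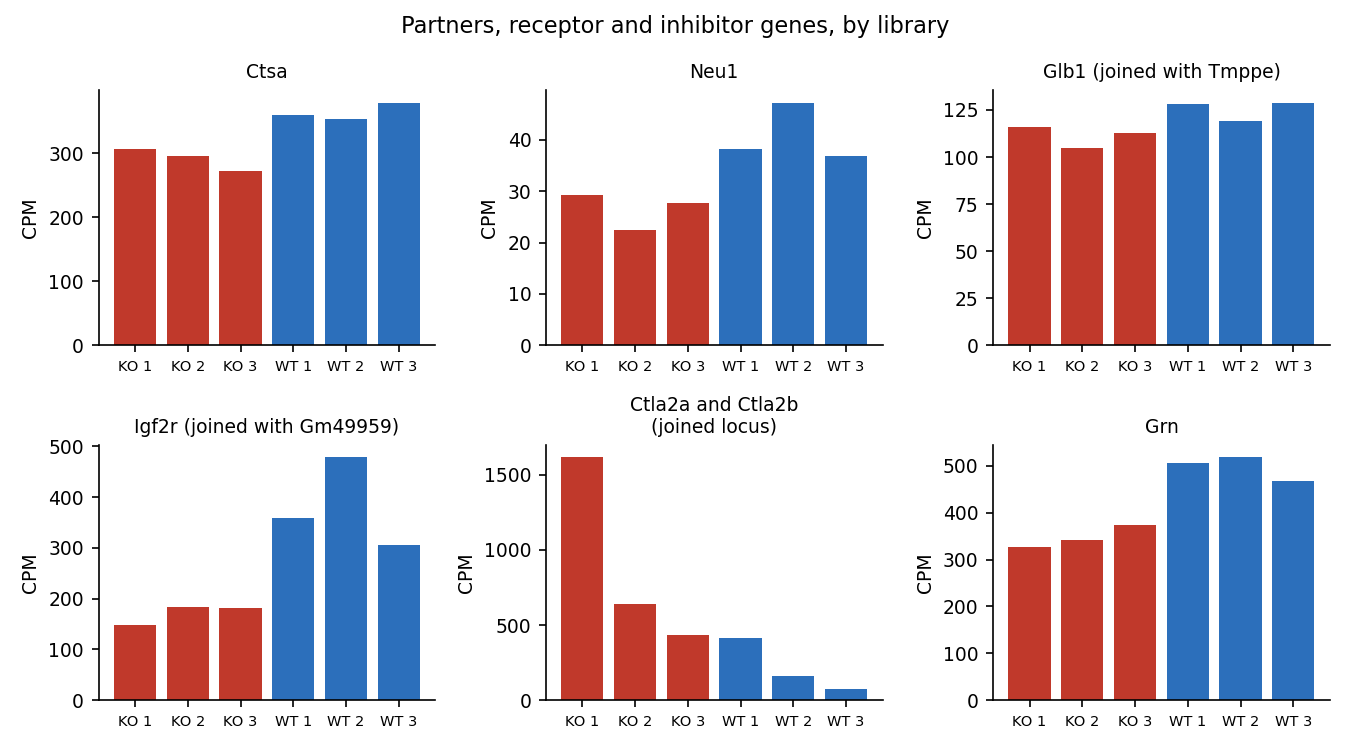
CPM in each library (KO, Stk11 ec-/-, red bars, and WT, blue bars, each with 3 replicates) of Ctsa and its partners Neu1 and Glb1, of the receptor Igf2r, of the joined Ctla2a and Ctla2b locus and of Grn. Igf2r stays at or below 184 CPM in Stk11 ec-/- and at or above 305 CPM in WT, and the Ctla2 locus has its highest bar, 1616 CPM, in Stk11 ec-/- replicate 1.

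Ctsd, the aspartic protease of the lysosome, was read from its joined locus at 1970, 2542 and 938 CPM in Stk11 ec-/- and at 1560, 1670 and 1046 CPM in WT libraries. Replicate 3 was the lowest of its group in both genotypes, and the range within Stk11 ec-/- was 2.71-fold. This locus had a log2 fold change of 0.35 (SE 0.42, edgeR adjusted p = 0.877).

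Ctsb, an endopeptidase that also clips dipeptides from the carboxyl end, was at 1365, 1594 and 923 CPM in Stk11 ec-/- and at 1079, 1043 and 1525 CPM in WT libraries. The groups overlapped, and replicate 3 was the lowest in Stk11 ec-/- but the highest in WT. Its log2 fold change was 0.09 (SE 0.33, edgeR adjusted p = 0.959).

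Ctsl, an endopeptidase that can release endostatin from collagen XVIII, was read from its joined locus at 521, 321 and 458 CPM in Stk11 ec-/- and at 267, 555 and 483 CPM in WT libraries. Here WT replicate 1 was the lowest of all. The group means were 433 ± 102 and 435 ± 150 CPM (SD, n = 3), and its log2 fold change was -0.0060 (SE 0.36, edgeR adjusted p = 0.998).

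Ctsz, a carboxypeptidase whose propeptide can bind integrins, was at 301, 123 and 170 CPM in Stk11 ec-/- and at 241, 236 and 197 CPM in WT libraries. Stk11 ec-/- replicate 1 was the highest of all and the other Stk11 ec-/- libraries were below every WT library. Ctsz had a log2 fold change of -0.18 (SE 0.36, edgeR adjusted p = 0.927), and -0.61 without that replicate.

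Ctsh, an aminopeptidase, showed the same replicate apart. Its libraries stood at 49.6, 14.0 and 16.3 CPM in Stk11 ec-/- and at 24.3, 18.3 and 35.3 CPM in WT libraries. Its log2 fold change of 0.04 (SE 0.54, edgeR adjusted p = 0.993) turned to -0.77 (edgeR adjusted p = 0.917) without Stk11 ec-/- replicate 1. That direction also turned without WT replicate 1 (-0.0032) or WT replicate 2 (-0.15).

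Ctsc, the dipeptidyl peptidase that activates the serine proteases of leukocyte granules, was at 62.3, 54.0 and 83.8 CPM in Stk11 ec-/- and at 138, 71.0 and 47.6 CPM in WT libraries. WT replicate 1 was the highest and WT replicate 3 the lowest, a 2.89-fold range within WT. Its log2 fold change of -0.36 (SE 0.42, edgeR adjusted p = 0.875) became 0.18 (edgeR adjusted p = 0.931) without WT replicate 1. Of 10 granule serine proteases and tryptases that Ctsc can activate, 0 had enough counts to be tested, 3 were at 0 in every library, and their summed level was at most 1.52 CPM in Stk11 ec-/- and 0.923 CPM in WT.

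Ctsf, a cysteine protease with an unusually long propeptide, was at 38.5, 27.4 and 42.1 CPM in Stk11 ec-/- and at 33.0, 32.0 and 34.1 CPM in WT libraries. The WT libraries lay within 1.06-fold of each other and inside the range of Stk11 ec-/-. The difference on the log2 scale was 0.12 (SE 0.27, edgeR adjusted p = 0.934).

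Ctss, which cuts the invariant chain of MHC class II in antigen-presenting cells and works at neutral pH, had 15, 9 and 4 counts in Stk11 ec-/- and 12, 0 and 0 counts in WT libraries. Both WT libraries at 0 allow up to 3 counts, or 0.103 CPM in replicate 2 and 0.0797 CPM in replicate 3, and this limit covers counting error only. The highest level of Ctss was 0.554 CPM, in WT replicate 1. With a log2 fold change of 0.15 and an SE of 1.75 (edgeR adjusted p = 0.99), no difference in either direction was detectable at this depth.

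Set against the summed FPKM of the 10 loci, the share of Ctsk did not overlap between genotypes, while those of the other members did. No like share over all genes was counted. The sum was 821, 747 and 379 FPKM in Stk11 ec-/- and 618, 490 and 414 FPKM in WT libraries, lowest in replicate 3 of each. The Ctsd locus, Ctsb, Ctsz and the Ctsl locus together made up 83.0% to 89.8% of it. Ctsk made up 0.232%, 0.433% and 0.387% in Stk11 ec-/- and 1.35%, 1.95% and 2.56% in WT libraries, so its share in each WT library exceeded that in each Stk11 ec-/- library. These shares restate the comparison of Ctsk relative to its own family and are not a separate measurement.

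**Figure D4:**
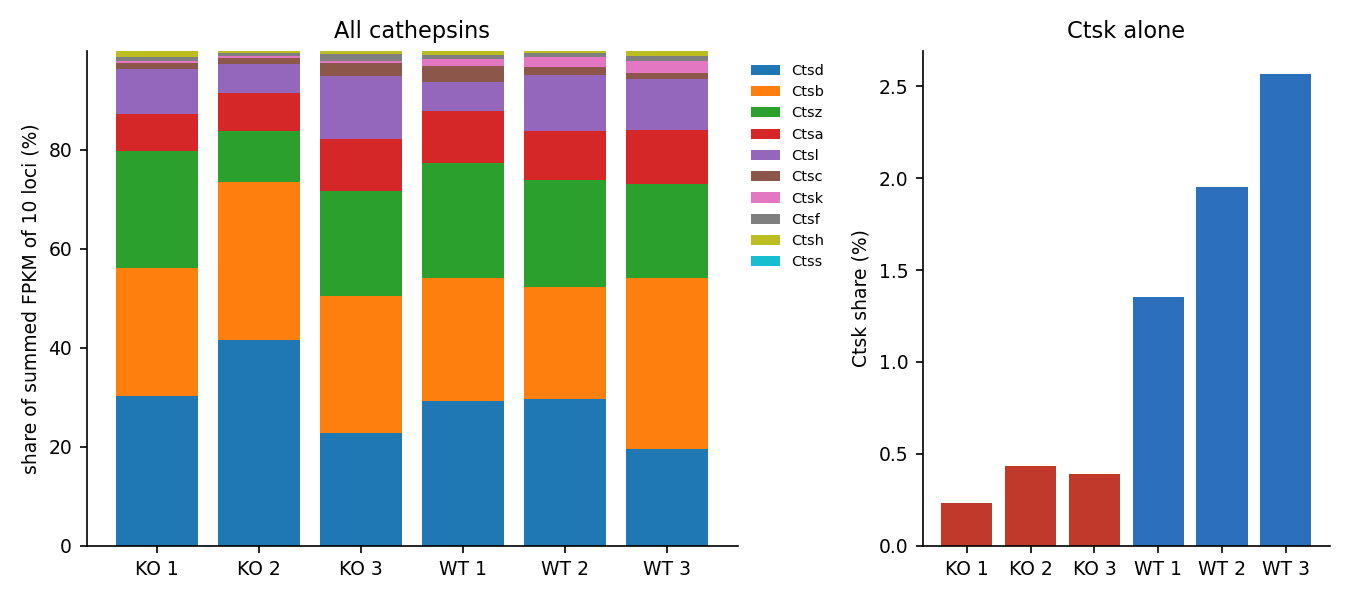
Share of each cathepsin in the summed FPKM of the 10 loci (left, stacked bars) and share of Ctsk alone on its own axis (right), in percent, for 3 Stk11 ec-/- (KO) and 3 WT libraries. The right panel runs from 0.232% to 0.433% in Stk11 ec-/- and from 1.35% to 2.56% in WT.

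Of 13 further mouse cathepsin genes, only Ctso, another papain-like protease, had enough counts to be tested, and 8 (Ctsm, Ctsq, Ctsr, Cts3, Cts6, Cts7, Cts8 and Ctsll3) were at 0 in every library. Ctso was at 22.7, 12.7 and 22.5 CPM in Stk11 ec-/- and at 15.9, 14.6 and 12.0 CPM in WT libraries. Its groups overlapped, with a log2 fold change of 0.45 (SE 0.33, edgeR adjusted p = 0.787).

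Among 18 inhibitors of cysteine proteases, which fill 17 rows, 6 rows were tested and 10 were at 0 in every library. An unadjusted p under 0.05 was met by 1 higher row and 0 lower rows, beside 4.36% higher and 2.99% lower among all genes tested. The median log2 fold change was -0.14 beside 0.02 for all genes. The higher row joins Ctla2a and Ctla2b, which resemble a cathepsin propeptide and can inhibit Ctsl, with 4930486L24Rik and further predicted genes. That locus was at 1616, 640 and 433 CPM in Stk11 ec-/- and at 415, 163 and 76.5 CPM in WT libraries.

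All Stk11 ec-/- libraries of the Ctla2 locus were above all WT libraries in CPM, as was the case for 7.69% of all genes tested. The gap between 433 and 415 CPM was narrow, and the groups overlapped in FPKM. For Ctla2a and Ctla2b the log2 fold change was 2.04 (SE 0.73, unadjusted p = 0.0256, edgeR adjusted p = 0.662). It moved to 1.30 when Stk11 ec-/- replicate 1 was left out, and to 2.91 when WT replicate 1 was. Cst3, which encodes the secreted inhibitor cystatin C, was at 403, 181 and 190 CPM in Stk11 ec-/- and at 192, 178 and 157 CPM in WT libraries. Cst3 overlapped between groups, with a log2 fold change of 0.55 (SE 0.36, edgeR adjusted p = 0.757) that was 0.09 without Stk11 ec-/- replicate 1.

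Of 13 genes that process cathepsins or deliver them to the lysosome, all 13 were tested, an unadjusted p under 0.05 was met by 1 higher and 1 lower gene (4.36% and 2.99% of all genes tested), and 0 passed an edgeR adjusted p of 0.05. Their median log2 fold change was -0.05. The lower gene was Igf2r, the large mannose 6-phosphate receptor, joined in its row with Gm49959. Igf2r was at 148, 184 and 181 CPM in Stk11 ec-/- and at 359, 478 and 305 CPM in WT libraries.

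Every Stk11 ec-/- library of Igf2r was below every WT library, in FPKM as well. Of the 13 genes, 2 were lower (Igf2r and Grn) and 1 higher (Tmem106b) without overlap in CPM. Among all genes tested, 6.58% were lower and 7.69% higher in this way. Igf2r had a log2 fold change of -1.16 (SE 0.28, unadjusted p = 0.0036, edgeR adjusted p = 0.537). The smaller receptor, M6pr, was at 74.1 to 77.3 CPM in Stk11 ec-/- and at 46.1 to 81.6 CPM in WT, and its log2 fold change was 0.29 (SE 0.28, edgeR adjusted p = 0.846). Tmem106b, a lysosomal membrane protein, was at 224, 174 and 115 CPM in Stk11 ec-/- and at 94.8, 107 and 87.3 CPM in WT libraries. Its groups did not overlap in CPM but did in FPKM, with a log2 fold change of 0.83 (SE 0.31, unadjusted p = 0.029, edgeR adjusted p = 0.662).

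Grn encodes progranulin, which is cut by cathepsins in the lysosome and assists Ctsd. Grn was read at 326, 342 and 373 CPM in Stk11 ec-/- and at 505, 518 and 467 CPM in WT libraries. The groups did not overlap in CPM but did in FPKM, with a log2 fold change of -0.52 (SE 0.24, unadjusted p = 0.0616, edgeR adjusted p = 0.682). Lgmn, the asparaginyl endopeptidase that cuts several cathepsins to their two-chain forms, overlapped between groups at a log2 fold change of -0.34 (SE 0.29, edgeR adjusted p = 0.821).

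Of 27 other lysosomal enzymes, membrane proteins and regulators, all 27 were tested, an unadjusted p under 0.05 was met by 1 lower gene (Neu1) and 0 higher genes, again beside 2.99% and 4.36% of all genes. The median was -0.16, with 9 values above 0 and 18 below. Without overlap in CPM were 4 lower genes (Neu1, Glb1, Mcoln1 and Tfe3) and 1 higher gene (Arsb), where 6.58% of all genes tested were lower and 7.69% higher in this way. In FPKM the 4 lower genes overlapped between groups and Arsb did not. Arsb, a sulfatase of dermatan sulfate, was at 40.4, 47.5 and 40.1 CPM in Stk11 ec-/- and at 23.3, 33.0 and 28.8 CPM in WT libraries, a log2 difference of 0.59 (SE 0.26, unadjusted p = 0.0575, edgeR adjusted p = 0.682). Tfeb, a regulator that binds the letters printed above, overlapped between groups at -0.34 (SE 0.61, edgeR adjusted p = 0.919). On X-linked Tfe3, its relative, the value was -0.46 (SE 0.25, edgeR adjusted p = 0.713).

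Of 12 matrix genes whose products cathepsins can cut, 10 were tested and 0 met an unadjusted p under 0.05 in either direction. Several were far higher in some libraries of a group than in others. Col1a1, the main collagen chain that Ctsk can cut, was at 37.7, 192 and 5033 CPM in Stk11 ec-/- and at 1812, 1012 and 2614 CPM in WT libraries. Col18a1, the source of endostatin, was at 49.1, 379 and 111 CPM in Stk11 ec-/- and at 185, 53.7 and 103 CPM in WT libraries. Both overlapped widely, and the median of the 10 was 0.19.

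Of 7 genes of MHC class II and its invariant chain, the system that Ctss and Ctsl serve, 5 were tested and an unadjusted p under 0.05 was met by 1, which was higher, beside 4.36% of all genes. The other 4 had log2 fold changes below 0, among them H2-DMa at -0.74 (SE 0.51), Ciita at -0.62 (SE 0.73) and H2-DMb1, joined with H2-DMb2, at -0.44 (SE 0.82), and the median of the 5 was -0.44. H2-Ab1, a beta chain of class II, was at 14.0, 14.4 and 9.18 CPM in Stk11 ec-/- and at 1.02, 0.103 and 0.930 CPM in WT libraries. The groups did not overlap in CPM, where 7.69% of all genes tested were higher in this way, or in FPKM. The log2 fold change of H2-Ab1 was 4.20 (SE 0.80, unadjusted p = 0.00098, edgeR adjusted p = 0.315, DESeq2 adjusted p = 2.29e-06). The invariant chain Cd74 was at no more than 1.15 CPM in any library and the alpha chain H2-Aa at no more than 0.274 CPM, and both overlapped between groups.

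Ctsk is a marker of osteoclasts and is also made by macrophages and fibroblasts, so the markers of those cells were read beside it. Of 16 macrophage and monocyte markers, 14 were above 0 in at least 1 library, with Fcgr1 and Cd163 at 0 throughout. Their sum was 23.9 to 46.4 CPM in Stk11 ec-/- and 25.5 to 57.6 CPM in WT, so the groups overlapped. Lyz2, the macrophage lysozyme, was at 0, 0 and 0.261 CPM in Stk11 ec-/- and at 1.38, 3.98 and 8.50 CPM in WT libraries. Lyz2 was without overlap in CPM in the same direction as Ctsk, as were 6.58% of all genes tested. DESeq2 called it (adjusted p = 0.00155) but edgeR did not (adjusted p = 0.60). Cd14, a receptor for bacterial lipopolysaccharide, ran the other way, at 10.1, 34.7 and 3.16 CPM in Stk11 ec-/- and at 1.11, 6.28 and 2.26 CPM in WT libraries, for a log2 difference of 2.31 (SE 0.97, unadjusted p = 0.0466, edgeR adjusted p = 0.674). Of the 6 macrophage markers tested, 5 were below 0 and 1 above, with a median of -0.80 beside 0.02 for all genes. At an unadjusted p under 0.05 (edgeR), 2 were lower and 1 higher, beside 2.99% and 4.36% of all genes.

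Mpeg1, a pore-forming protein of macrophages, was at 1.07, 0.314 and 1.65 CPM in Stk11 ec-/- and at 8.72, 10.9 and 1.38 CPM in WT libraries. Mpeg1 had a log2 fold change of -2.78 (SE 0.91, unadjusted p = 0.0174, edgeR adjusted p = 0.641). Its high libraries were WT replicates 1 and 2, while Lyz2, like Ctsk, was highest in WT replicate 3. The part of macrophages in the Ctsk values was not tested. Of 9 osteoclast markers, 8 were above 0 somewhere and Dcstamp, needed for osteoclast fusion, was at 0 in every library. The osteoclast sum was 37.3 to 158 CPM in Stk11 ec-/- and 30.2 to 116 CPM in WT, most of it Itgb3, an integrin of platelets and ECs as well.

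Acp5, the acid phosphatase of osteoclasts, was at 5.86, 2.80 and 3.07 CPM in Stk11 ec-/- and at 7.62, 15.9 and 5.31 CPM in WT libraries. The groups overlapped by 1 library, with a log2 fold change of -1.29 (SE 0.54, unadjusted p = 0.0471, edgeR adjusted p = 0.677) that was -0.72 without WT replicate 2. It was the 1 osteoclast marker below 0 among 5 tested, and their median was 0.46. Tnfrsf11a, the receptor that starts osteoclast formation, was at 1.495, 1.42 and 0.762 CPM in Stk11 ec-/- and at 0.554, 0.652 and 0 CPM in WT libraries. It was higher without overlap in CPM, as were 7.69% of all genes tested, and in FPKM (log2 fold change 1.62, SE 1.28, edgeR adjusted p = 0.802). Fibroblast sums were highest in replicate 3 of each genotype, at 17036 CPM in Stk11 ec-/- and 15044 CPM in WT, where Ctsk was at 3.26 and 28.2 CPM. Pericyte and smooth muscle markers summed to 895 to 4602 CPM and 458 to 9433 CPM. Taken gene by gene, all 8 pericyte and smooth muscle markers tested had log2 fold changes below 0, the direction of Ctsk, with a median of -1.17, and 10 of 14 fibroblast markers did, with a median of -0.42. None of these met an unadjusted p under 0.05. The pericyte and smooth muscle direction leaned on WT replicate 3, where Des was at 1234 CPM against 9.74 and 4.84 CPM in WT replicates 1 and 2. Without WT replicate 3, Des turned to 2.52, Mcam to 1.24 and Cnn1 to 1.34, while Cspg4 was at -0.87. The part of fibroblasts, pericytes and smooth muscle cells in the Ctsk values was not tested.

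**Figure D5:**
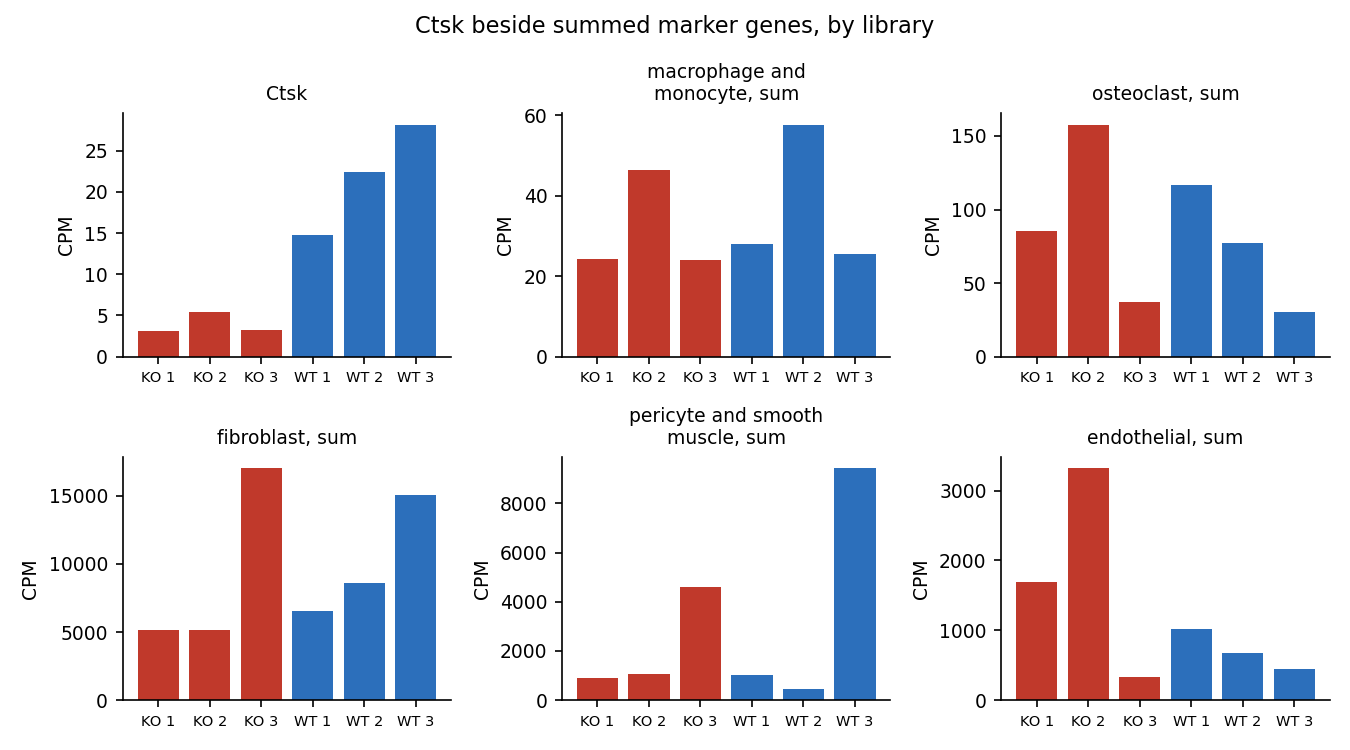
CPM of Ctsk and the summed CPM of 5 marker lists in each library (KO, Stk11 ec-/-, red, and WT, blue, 3 replicates each), on separate axes that start at 0. Ctsk is at most 5.42 CPM in Stk11 ec-/- and at least 14.8 CPM in WT, while the range of each list's sum in Stk11 ec-/- overlaps that in WT.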

How the data were processed

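RNA from 3 Stk11 ec-/- and 3 WT EC libraries was sequenced. The authors deposited 1 table of 91725 loci with, for each library, whole-number counts not scaled to library size and FPKM scaled by the authors to length and depth (0.0001 where the count is 0). Alignment with HISAT2 to GRCm38 and use of StringTie are given in the methods. In contrast, BWA, TopHat, Cufflinks and mm9 stand in the submitters' processing notes. No versions are given. Positions of the members match GRCm38. Deposited GO and KEGG annotation was not used.

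Rows with an Ensembl transcript and a gene name entered, 1 per name (53425, with 105 repeats left out). Rows without a gene name, 0.359% to 0.887% of a library's counts, stayed out. Counts were tested with edgeR 4.0.16 (R 4.3.3) by TMM, the default filter on low counts, which left out 36046 rows, and the quasi-likelihood test across 17379 genes with genotype as the only factor. Adjustment over all genes followed Benjamini and Hochberg. All 10 members or their joined loci passed the filter. The common biological coefficient of variation was 0.628. Levels are CPM after TMM, with SDs over 3 libraries. DESeq2 1.42.0, limma 3.58.1 on FPKM, other filters and scalings, a replicate block and leaving out libraries were alternatives. Tables were made in Python 3.11.15. The steps were tested on simulated data. Every pair of libraries differed by more than sampling noise (chi-square divided by its degrees of freedom was at least 158).

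Members and lists were chosen with earlier results of these data known. The naming rule took all members, up to 4 genes per list with the smallest unadjusted p and the defining genes of marker lists. It also took the 3 nearest tested genes on each side of Ctsk and Ctss, and not all genes under this rule appear above. Named outside this rule, after their values were seen, are Glb1, Mcoln1, Tfeb, M6pr, Lgmn, Col1a1, Cd74, H2-Aa and the cathepsins at 0. Granulocyte, lymphocyte, erythroid and megakaryocyte, and mesothelial lists were read but not described. Of 6 mesothelial markers tested, 3 were higher at an unadjusted p under 0.05 (edgeR), beside 4.36% of all genes. Without Stk11 ec-/- replicate 3, Wt1 fell from 4.28 to -0.28 and Upk3b from 5.47 to 0.12. Counting intervals and limits cover counting error only.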

Additional observations from a re-analysis of the deposited data

Results flagged for a closer look

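An assembled locus whose row holds no Ensembl transcript, and which so stayed out of the main comparison, carried the name Ctse, the gene of an aspartic protease related to Ctsd. It spans 546 bases on chromosome 1, from 131646389 to 131646934 (GRCm38), inside the Ctse gene and outside its annotated exons. It was singled out because it had 102, 127 and 96 counts in Stk11 ec-/- libraries and 0 counts in all 3 WT libraries. How many of the 38195 rows without an Ensembl transcript split the libraries in this way was not counted, so nothing is read from the split. This came to 1.82, 3.33 and 2.09 CPM in Stk11 ec-/- (2.41 ± 0.806, SD, n = 3). The limit of 3 counts in each WT library came to a mean of 0.107 CPM, and the Stk11 ec-/- mean was 22.5-fold that limit. This ratio is of means and restates the values by which the locus was singled out. The annotated Ctse row held 0.105 CPM in Stk11 ec-/- replicate 2 and 0 elsewhere, so the signal lay in the intronic interval and not in the exons of Ctse. Only the alternative over all rows with a gene name took this locus in, and its value in that fit is not given here. Sex coincides with genotype, so the 2 cannot be told apart for this locus.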

How the results depend on the processing

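Ctsk was the 1 cathepsin past the study's thresholds in every alternative, with a log2 fold change below 0 in all 16. DESeq2 was the only tool that also put it past an adjusted p of 0.05. Over all genes, 13 passed an edgeR adjusted p of 0.05, against 224 with DESeq2, 36 with no filter on low counts, 1 to 4 when 1 library was left out, and 0 (1129 past the study's thresholds) without replicate 3 of both genotypes. With edgeR's p and 1 added to each FPKM mean, 465 genes passed the study's thresholds, whose fold is named without an added constant. The count was 1039 with no 1 added to FPKM, 788 over all named rows and 935 with the fold from edgeR. It ran from 366 to 950 when 1 library was left out, the highest without Stk11 ec-/- replicate 3. Same-numbered replicates did not deviate together (r = 0.23, -0.19 and 0.05), so pairing was not established. With the replicate number as a block, 1 gene passed an adjusted p of 0.05, Ctsk was at -2.47 (edgeR adjusted p = 0.482) and Ctsh turned to -0.17.

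Signs of some members changed with the scale. On limma with 1 and 0.1 added to FPKM, Ctsc was at 0.022 and 0.046, the Ctsl locus at 0.32 and 0.32, and Ctsz at 0.016 and 0.016. The Ctsl locus was also at 0.015 with no filter, 0.013 at a mean FPKM of at least 1, 0.029 with the replicate block, 0.034 without replicate 3 of both genotypes and 0.0013 without chromosomes X and Y. Leaving out 1 library at a time gave ranges of -0.083 to 0.29 for Ctsb, -0.64 to 0.18 for Ctsc, 0.032 to 0.66 for the Ctsd locus (lowest without Stk11 ec-/- replicate 2, highest without replicate 3), -0.0023 to 0.29 for Ctsf, -0.77 to 0.35 for Ctsh, -0.25 to 0.21 for the Ctsl locus and -0.61 to 0.074 for Ctsz. Ctss ranged from -0.46 to 6.05, the highest without WT replicate 1, where the remaining WT libraries are at 0 and the fitted value is no bound. The direction turned without Stk11 ec-/- replicate 2 or WT replicate 2 for Ctsb, without WT replicate 1 for Ctsc, without Stk11 ec-/- replicate 3 for Ctsf, without Stk11 ec-/- replicate 2 for Ctsz, and without Stk11 ec-/- replicate 2, WT replicate 2 or WT replicate 3 for the Ctsl locus and Ctss. None of these passed an adjusted p of 0.05. The cause of these changes was not tested.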

Other observations

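Ctsk and Ctss lie beside each other on chromosome 3, and none of the tested genes next to them met an unadjusted p under 0.05 (edgeR). Arnt, the partner of hypoxia-inducible factors, ends 2016 bases before Ctsk and was at 37.2, 47.5 and 49.9 CPM in Stk11 ec-/- and at 60.5, 36.8 and 48.5 CPM in WT libraries, a log2 difference of -0.12 (SE 0.29, edgeR adjusted p = 0.941). Setdb1, a histone methyltransferase further upstream, was also at -0.12 (SE 0.26, edgeR adjusted p = 0.936). The joined locus of Ensa and Mcl1, the latter a survival gene of the Bcl2 family, was at 0.30 (SE 0.30, edgeR adjusted p = 0.85). The pseudogene Rps10-ps1 had the lowest value among these neighbours, -0.78 (SE 0.42, edgeR adjusted p = 0.712). Its groups did not overlap in CPM, as was the case in this direction for 6.58% of all genes tested.

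A second assembled locus at a cathepsin gene, 232 bases inside Ctso on chromosome 3, had 0, 0 and 6 counts in Stk11 ec-/- and 23, 0 and 19 counts in WT libraries. Its groups overlapped.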
